A study of Mus musculus with 8 samples.

Results

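The melanoma cells described here were those at the top of a score that set transcripts of replication licensing against transcripts of S phase. All 8 tumours were pooled, and 22783 of 41925 barcodes were kept as melanoma cells because they had 200 to 5000 detected genes, at most 7.5% mitochondrial unique molecular identifiers (UMIs), at least 4000 UMIs, and at least 0.3% of UMIs from the pigment genes Mlana, Pmel, Dct, Tyr and Tyrp1. The score of a cell was the mean of ln(1 + count per 10000) over 7 genes, Mcm3, Mcm4, Mcm5, Cdc6, Ung, Cdt1 and Dtl, minus the same mean over 5 genes, Rrm2, Pclaf, Tk1, Hist1h1e and Hist1h2ae. The 2279 cells in the top 10% of this score were the members, and the remaining 20504 melanoma cells are called the other melanoma cells. The members were thus selected on the measured values of these 12 genes.

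The tumours were grown from B16F10, a transplantable mouse melanoma line, under the skin of mice with either intact or deleted Atf4, the gene for a transcription factor of the integrated stress response. There were 4 tumours in Atf4wt/wt hosts (2 male, 2 female) and 4 in Atf4D/D hosts (1 female, 3 male), all from 12-week-old mice according to the labels and taken as large tumours at about 300 mm3. Hosts of both genotypes carried Rosa26::CreERT2, a tamoxifen-inducible Cre expressed throughout the body, and both received tamoxifen, so the groups differed in the floxed Atf4 allele. The injected tumour cells carried no floxed allele, and their own Atf4 was intact in both groups. Each tumour gave 1 library of 37283598 to 74942137 UMIs, and the members supplied between 148 cells with 1676577 UMIs (Atf4wt/wt replicate 3) and 563 cells with 5503795 UMIs (Atf4wt/wt replicate 1).

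Before a cell copies its DNA, origins of replication are licensed in G1: the origin recognition complex, CDC6 and CDT1 load the MCM helicase onto DNA. Cyclin D and cyclin E kinases then inactivate RB-family proteins and free E2F factors, which drive transcription of many licensing and replication genes. Once S phase has begun, CDT1 is destroyed, in part through the ubiquitin ligase adaptor DTL, and nucleotide synthesis and histone transcripts rise.

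Promoters of genes on both sides of the members' profile are shown first, because E2F letters were more frequent in genes of the licensing side and CHR letters in G2/M genes. The windows are RefSeq sequences on GRCm38.p6, from 250 bases before to 50 bases after a start, and are written 5′ to 3′ in the direction of the gene. Capitals mark matches on either strand to TTTCCCGC, TTTGGCGC, TTTCGCGC or TTTGCCGC (E2F), to TTTGAA (the cell cycle homology region, CHR) and to CCAAT. Matches to different E2F strings can overlap where both strands match, and each letter is then capitalised once. Mcm3 (chr1:20820263-20820562, minus strand), Cdc6 (chr11:98907901-98908200, plus strand) and Cdt1 (chr8:122567765-122568064, plus strand) were counted in the score. Cdca7 (chr2:72475969-72476268, plus strand) and Msh6 (chr17:87974800-87975099, plus strand) were not used and are among the 15 genes with the highest ratios of members to other melanoma cells. Plk1 (chr7:122159185-122159484, plus strand) was among the lowest.
Mcm3: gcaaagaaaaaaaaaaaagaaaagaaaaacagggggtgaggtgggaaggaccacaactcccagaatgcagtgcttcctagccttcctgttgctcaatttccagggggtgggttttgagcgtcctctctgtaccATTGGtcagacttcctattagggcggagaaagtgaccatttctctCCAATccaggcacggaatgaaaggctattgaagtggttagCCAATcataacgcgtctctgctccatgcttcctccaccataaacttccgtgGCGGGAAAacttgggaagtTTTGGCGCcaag
Cdc6: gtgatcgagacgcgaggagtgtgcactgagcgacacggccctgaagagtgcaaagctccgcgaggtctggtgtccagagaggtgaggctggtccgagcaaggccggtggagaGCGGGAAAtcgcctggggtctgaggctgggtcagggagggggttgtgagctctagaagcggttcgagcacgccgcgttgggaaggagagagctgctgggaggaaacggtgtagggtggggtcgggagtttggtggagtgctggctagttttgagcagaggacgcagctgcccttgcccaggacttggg
Cdt1: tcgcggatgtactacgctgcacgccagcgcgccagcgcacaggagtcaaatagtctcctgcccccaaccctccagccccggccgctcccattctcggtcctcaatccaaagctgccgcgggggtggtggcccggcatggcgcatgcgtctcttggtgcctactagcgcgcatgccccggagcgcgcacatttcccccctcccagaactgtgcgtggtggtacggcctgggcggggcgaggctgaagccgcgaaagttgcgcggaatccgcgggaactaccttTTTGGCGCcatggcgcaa
Cdca7: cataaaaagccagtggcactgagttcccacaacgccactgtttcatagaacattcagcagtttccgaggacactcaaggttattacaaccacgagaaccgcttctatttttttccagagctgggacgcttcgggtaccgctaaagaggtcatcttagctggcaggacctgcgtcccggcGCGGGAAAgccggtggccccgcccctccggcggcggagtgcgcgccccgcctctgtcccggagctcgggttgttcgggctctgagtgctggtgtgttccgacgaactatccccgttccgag
Msh6: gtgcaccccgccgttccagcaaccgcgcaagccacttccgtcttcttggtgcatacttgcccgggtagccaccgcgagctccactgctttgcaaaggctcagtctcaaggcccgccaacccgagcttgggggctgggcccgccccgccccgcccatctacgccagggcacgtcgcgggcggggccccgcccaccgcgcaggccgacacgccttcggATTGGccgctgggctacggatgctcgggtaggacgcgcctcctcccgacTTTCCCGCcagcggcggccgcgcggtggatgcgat
Plk1: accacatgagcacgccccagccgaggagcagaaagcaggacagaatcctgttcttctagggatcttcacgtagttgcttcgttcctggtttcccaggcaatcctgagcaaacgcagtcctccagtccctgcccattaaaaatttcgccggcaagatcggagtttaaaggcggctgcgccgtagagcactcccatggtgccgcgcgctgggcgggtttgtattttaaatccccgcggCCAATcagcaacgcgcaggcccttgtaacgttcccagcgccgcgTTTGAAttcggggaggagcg

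An E2F string was found in the windows of 5 of the 6 matched score genes of the licensing side; Ung had none and Mcm4 was not matched. Over all 27025 genes with a window, 2.60% held an E2F string, 20.2% a CHR string and 41.1% a CCAAT string. Among the 15 unused genes highest in members, 6 of 14 matched genes held an E2F string and 0 held a CHR string; Cdca7, one of the 6, passed the level filter only through the members. Among the 15 lowest, 0 of 12 matched genes held an E2F string, while 10 held a CHR string and 10 held CCAAT. Apart from Mki67, Prc1, Cenpf and Cenpe, these 15 passed the level filter only through the other cells. E2F strings did not follow the members' ratios closely: they were in 8 of 19 matched genes of the licensing list (42.1%), of which no gene passed the threshold for higher, in 11 of 30 of the fork list (36.7%), and in 1 of 3 subtracted score genes. CHR strings were in 5 of 19 genes of the licensing list (26.3%) and 20 of 28 of the G2/M list. These are matches of letters and do not show binding.

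The limit of the score lay at 0.174, in a range without a gap. The 5 members just inside it scored 0.173703 to 0.173915 and the 5 cells just outside scored 0.173402 to 0.173681, while 603 members lay within 0.05 above it and 980 other cells within 0.05 below. A member had a median of 6 UMIs from the 7 licensing genes, against 1 in the other melanoma cells, and 38.8% of members against 29.1% of the others had no UMI from the 5 subtracted genes. The call therefore rested on few molecules per cell. When each cell was thinned to 4000 UMIs, 1220 cells were chosen again, 53.5% of the members and 57.5% of the thinned set. Sequencing depth was alike in both classes, with median UMIs of 10485 in members and 10478.5 in the others, and median mitochondrial shares of 5.65% and 5.51%. Of 41725 distinct barcode sequences, 199 occurred in 2 or more libraries. Of these, 13 belonged to members, and 0 were members in both libraries.

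The 7 licensing genes were higher and the 5 subtracted genes lower in members in all 8 tumours, as the choice of cells requires. Levels are UMIs per 1000000 UMIs (CPM) summed over the cells of a class in a tumour, and differences were log2 ratios with 1 CPM added. Ung, the uracil-DNA glycosylase that removes uracil from new DNA, had 42.5 ± 5.84 CPM (SD, n = 8 tumours) in members and 11.5 ± 1.44 in the others. Cdc6 had 38.6 ± 4.30 and 13.4 ± 1.73 CPM, and Cdt1 had 108 ± 11.0 and 42.6 ± 4.53 CPM. Of the helicase subunit genes, Mcm4 had 93.3 ± 10.3 and 37.1 ± 5.35 CPM, a log2 ratio of 1.32 close to that of Cdt1 (1.28). Mcm3 and Mcm5 had lower ratios (0.98 and 0.75), with 230 ± 16.1 against 111 ± 14.7 CPM for Mcm3 and 129 ± 8.25 against 74.9 ± 6.72 CPM for Mcm5. These differences describe the selection.

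To see which of the 12 genes followed the others, each was left out of the score in turn and read in the cells that the remaining genes chose, an alternative added after the data were seen. All 7 licensing genes were still higher in 8 of 8 tumours. The median log2 ratio was 1.32 for Ung, 1.11 for Cdc6, 0.85 for Mcm4, 0.77 for Cdt1, 0.66 for Dtl, 0.39 for Mcm3 and 0.25 for Mcm5. The repair gene Ung and the loading factor gene Cdc6 thus had the highest ratios of the 7, and the helicase genes Mcm3 and Mcm5 the lowest. On the subtracted side, the histone genes Hist1h2ae and Hist1h1e had ratios of −2.27 and −1.63, the thymidine kinase gene Tk1 −0.70 and the PCNA partner gene Pclaf −0.52, each below 0 in 8 of 8 tumours. Rrm2, the small subunit of ribonucleotide reductase, did not keep its direction: its ratio was 0.16, above 0 in 7 of 8 tumours.

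Outside the 17 genes of the rule, members of this score differed from the summed other melanoma cells mainly by the low level of G2/M transcripts, and this depended on the subtracted genes and on depth. The same cells supplied the score and these levels, so the values below are a description without a test. Of 5798 genes with a mean level of at least 20 CPM, 8 (0.138%) were higher in members in 8 of 8 tumours with a median log2 ratio of at least 0.5, and 82 (1.41%) were lower by the same rule. The median ratio of all 5798 genes was 0.01. With no threshold of size, 472 of the 5798 genes (8.14%) were above 0 in 8 of 8 tumours and 303 (5.23%) below 0. When cells were chosen by the 7 licensing genes alone, 305 genes were higher and 155 lower, and the list medians were 1.33 for licensing and −0.37 for G2/M genes. When each cell was thinned to 4000 UMIs, 18 genes were higher and 40 lower, and these medians were 0.34 and −0.63.

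**Figure D1:**
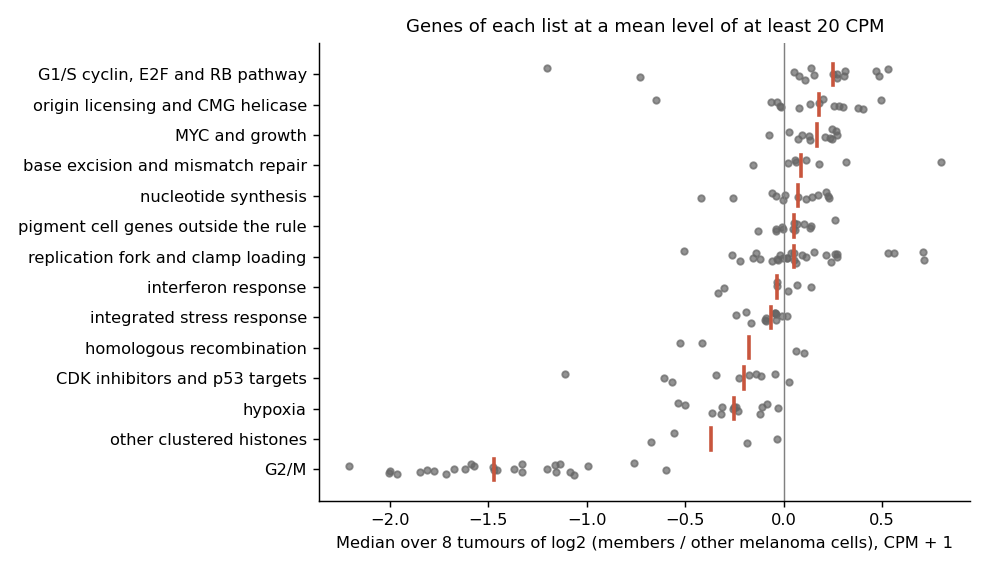
Each grey point is a gene of a list at a mean level of at least 20 CPM, placed at its median over 8 tumours of the log2 ratio of members to other melanoma cells (CPM + 1), and red bars are list medians. The G2/M genes lie far below 0, with a median of −1.47, while the licensing (0.18) and G1/S (0.25) medians lie slightly above it. Some of the G2/M genes reached that level only through the other cells, so they had to lie below 0.

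All 27 G2/M genes at that level were lower, against 1.41% of all genes, with a median ratio of −1.47. Some of them, such as Aurkb (14.7 CPM in members) and Plk1 (13.6), reached the level only through the other cells. Those genes had to be lower in members, and both the count of 27 and the median include them. Mki67, which encodes the proliferation antigen Ki-67, had 58.9, 42.0, 72.2 and 42.7 CPM in the members of Atf4wt/wt replicates 1 to 4 and 63.0, 39.5, 44.8 and 54.8 CPM in those of Atf4D/D replicates 1 to 4. In the other melanoma cells of the same tumours the levels were 260, 210, 203 and 172 CPM, and 205, 182, 184 and 203 CPM. Members and others did not overlap, and the 2 genotypes did. The 15 lowest genes were Nusap1, Mki67, Kif23, Kif11, Plk1, Prc1, Spc25, Cenpf, Cdca2, Aspm, Knl1, Aurkb, Cenpe, Pimreg and Kif4, which include mitotic kinases (Plk1, Aurkb), spindle motors (Kif11, Kif23, Kif4, Cenpe) and kinetochore proteins (Spc25, Knl1). Their median ratios ran from −2.21 for Nusap1 to −1.63 for Kif4. All of them except Mki67, Prc1, Cenpf and Cenpe were below 20 CPM in members. Those genes passed the level filter only through the other cells, so they had to be lower in members. Cell by cell, 1.84% of members fell in the top 10% of all melanoma cells by mean expression of the G2/M list, against 8.59% of the cells in the middle 80% of the score. Low G2/M expression was not particular to members: the median cell had a mean G2/M expression of 0.111 in members and 0.124 in the middle, in ln(1 + count per 10000). Bands 6 and 8 of 9 along the score were lower still, with 0.0462 and 0.0685, and had 40.5 and 47.9 CPM of Mki67.

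The genes highest in members differed less and came, among others, from chromatin replication, mismatch repair and G1/S control. Cdca7, whose product acts with the chromatin remodeller HELLS, had a median ratio of 0.87, but it passed the level filter only through the members, so that it had to be higher there. Its level was 21.3, 20.6, 35.2 and 24.2 CPM in members of Atf4wt/wt replicates 1 to 4 and 18.9, 22.9, 25.8 and 25.2 CPM in those of Atf4D/D replicates 1 to 4. The other melanoma cells had 10.8 to 13.6 CPM, below every member value. Msh6, a mismatch recognition subunit, had 0.80 and Hells 0.71. Timeless, of the fork protection complex, had 0.71, but at 19.4 CPM in the other melanoma cells it also passed only through the members. Chaf1a, a histone chaperone subunit, had 0.56, and Uhrf1, which maintains DNA methylation at forks, 0.53. Casp8ap2, needed for expression of replicative histone genes, had 0.55, and Zmynd19 0.51. Abca12, a lipid transporter gene, had 0.65 and, as with Cdca7, passed only through the members. The naming rule asked for 20 CPM in either class. Cdca7 and Abca12 had a mean level below 20 CPM over both classes, so neither is among the 8 genes counted above. On the low side, Cdca2 likewise had a mean level below 20 CPM over both classes, so it is not among the lower genes counted above. Like most of the lowest genes, Cdca2 passed the naming rule only through the other cells.

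**Figure D2:**
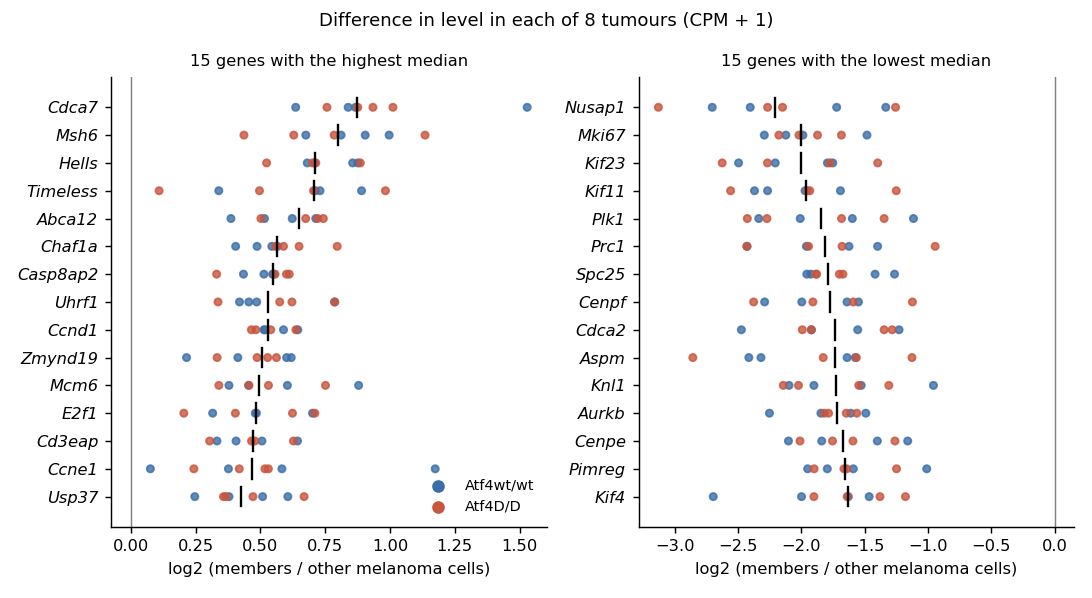
Each point is 1 of 8 tumours, placed at the log2 ratio of members to other melanoma cells (CPM + 1) for the 15 unused genes with the highest (left) and lowest (right) medians, blue for Atf4wt/wt and red for Atf4D/D hosts, with medians as black ticks. Every point on the left lies above 0 and every point on the right below 0, which the naming rule required, and the right side reaches −3.13 while the left side reaches 1.53.

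Ccnd1, which encodes the G1 cyclin D1, was the G1/S gene with the highest ratio. Members had 182, 187, 185 and 225 CPM in Atf4wt/wt replicates 1 to 4 and 153, 179, 190 and 174 CPM in Atf4D/D replicates 1 to 4. The other melanoma cells had 111 to 158 CPM, so the member value was higher within each tumour although the ranges met. Ccne1, encoding cyclin E1, had a ratio of 0.47 and was above 0 in 8 of 8 tumours, but the ratio ran from 0.08 in Atf4wt/wt replicate 4 to 1.17 in Atf4wt/wt replicate 3. E2f1 had 0.48, and Skp2, the adaptor that marks p27 for destruction, 0.31 at a mean level of 23.3 CPM in members. Of the 15 G1/S genes at level, 1 was higher (Ccnd1) and 2 were lower by the rule above, against 0.138% and 1.41% of all genes. The 2 lower ones were Fbxo5 (−1.20) and Fzr1 (−0.73), which inhibits and activates the anaphase-promoting complex, respectively.

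The licensing genes that the score did not use differed little. Of 15 at level, 0 passed the threshold for higher, against 0.138% of all genes. Dbf4, the activator of the CDC7 kinase, passed that for lower (−0.65), as did 1.41% of all genes. The list median was 0.18, and 7 of 15 were above 0 in 8 of 8 tumours, against 8.14% of all genes. The remaining MCM2-7 subunits were among these 7, with 0.49 for Mcm6, 0.37 for Mcm2 and 0.25 for Mcm7, as were Gins2 (0.40), Orc6 (0.30), Mcmbp (0.20) and Orc2 (0.18). Geminin, the inhibitor of CDT1, is encoded by Gmnn, which had 58.4 ± 3.71 CPM in members and 54.3 ± 6.42 in the others. The polymerase, clamp and clamp loader genes went both ways, with 0.27 for Pold3 and for Rfc3 (above 0 in 8 of 8 tumours), 0.05 for Pcna, −0.06 for Pola1 and −0.26 for Rfc5 (below 0 in 8 of 8 tumours). In the fork list, 4 of 29 genes at level were higher (Hells, Timeless, Chaf1a and Uhrf1), against 0.138% of all genes. Only Asf1b was lower, against 1.41% of all genes.

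High licensing transcripts were not particular to members, which qualifies the name G1/S licensing for these cells. The bottom 10% of the score, where the subtracted S-phase genes were highest, had as much Mcm5 (129 ± 7.91 CPM) as members (129 ± 8.25). It had more Mcm2 (227 ± 18.6 against 175 ± 17.8 CPM, higher in 8 of 8 tumours), more Pcna (204 ± 17.1 against 117 ± 14.5) and more Ccne1 (56.1 ± 8.09 against 42.3 ± 7.92). Of the 15 genes highest in members, it also had more Mcm6 (94.1 against 75.1 CPM), E2f1 (43.0 against 36.7), Uhrf1 (137 against 122) and Chaf1a (71.1 against 62.4). Timeless was slightly higher there too (31.4 against 30.7), while the rest of the 15 except Ccne1 had lower mean levels there. Cdc6 (38.6 against 15.5 CPM) was higher in members, as its place in the score requires. Of genes outside the score, Ccnd1 (184 against 106), Msh6 (43.5 against 32.6) and Hells (108 against 97.2) exceeded the bottom 10% in 8 of 8 tumours. Cells at the bottom of the score were also deeper, with a median of 13860 UMIs, and the part of depth in these differences was not tested.

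**Figure D3:**
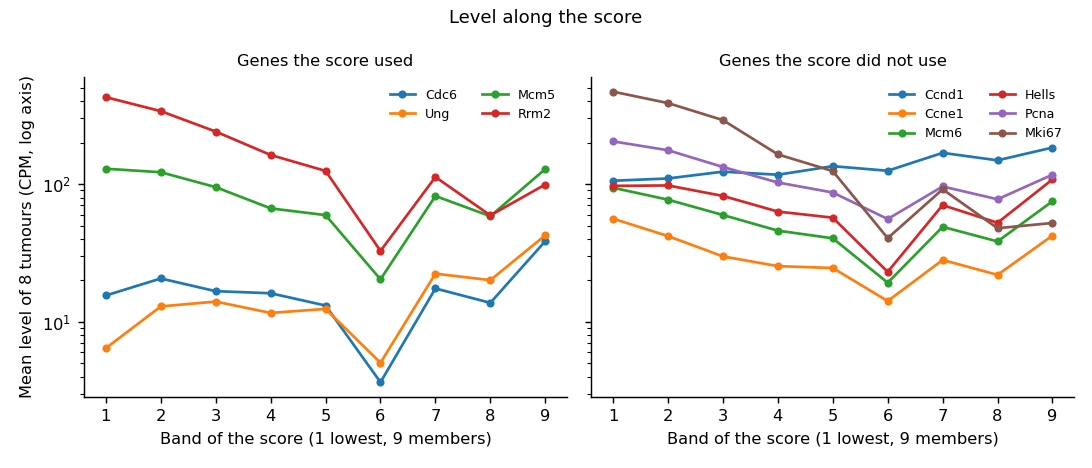
Mean level over 8 tumours (CPM, log axis) in 9 bands of the score, from the lowest (1) to the members (9), for genes the score used (left) and did not use (right). Ccnd1 is lowest in band 1 and highest in members at 184 CPM. All other genes shown are lowest in band 6 (Mki67 40.5 CPM there, 470 in band 1 and 52.2 in members), which holds the cells with none of the 12 transcripts.

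The profile along the score was not a single ramp. Each band held about 10% of the cells except the sixth and seventh. The sixth took the 4206 cells with none of the 12 transcripts, all tied at 0, and held 5573 cells in all, and the seventh held 1260. These cells, set apart after the data were seen, had a median of 8178 UMIs and much lower levels of proliferation genes: Mcm2 had 36.3 ± 6.64 CPM, E2f1 6.06 ± 1.77 and Mki67 12.4 ± 4.70. Members exceeded them in 8 of 8 tumours for all 3 genes. Ccnd1 differed less between these classes, with 118 ± 19.0 CPM in the cells without the 12 transcripts. Members thus had more Mki67 than the cells with no score transcript and less than the mean of the other melanoma cells (202 CPM).

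Some inhibitors of the cyclin-dependent kinases were lower in members. Of 10 genes at level in the list of inhibitors and p53 targets, 3 were lower and 0 higher, against 1.41% and 0.138% of all genes. The 3 were Cdkn2d (−1.11), Cdkn1a, which encodes p21 (−0.61), and Cdkn2c (−0.57). Low levels of Cdkn1a and Cdkn2c were not particular to members. Cdkn1a had 103 CPM in members and 115 in the bottom 10% of the score, and Cdkn2c had 26.4 CPM in members and 23.4 in the cells with none of the 12 transcripts. Of the 9 bands, members had the lowest Cdkn2d and Cdkn1a. Cdkn2d had 21.4 CPM there, 26.2 in the cells with none of the 12 transcripts and 93.4 in the bottom 10%. Members were above the cells with none of the 12 transcripts in 2 of 8 tumours for Cdkn2d. Cdkn1b, encoding p27, had −0.34 and was below 0 in 8 of 8 tumours. Its low level was not particular to members, with 50.1 CPM there and 52.1 in the bottom 10% of the score. In the MYC and growth list, 0 of 12 passed the threshold, 9 were above 0 in 8 of 8 tumours (8.14% of all genes were), and the median was 0.17. The bottom 10% of the score had as much or more of several of these genes, with 1491 against 1319 CPM for Ncl, 188 against 168 for Fbl and 174 against 171 for Nolc1. Myc itself had 45.9 CPM in members and 38.4 in the others, and the nucleolar genes Nolc1 and Nop56 both had ratios of 0.27.

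Most hypoxia genes were below the other melanoma cells in every tumour, by less than the threshold, and were not lower than in the bottom 10% of the score. The list median was −0.25, 11 of 13 genes at level were below 0 in 8 of 8 tumours (5.23% of all genes were), and 1 passed the threshold (Ero1l, an endoplasmic reticulum oxidase, −0.54). Bnip3, a mitophagy receptor gene, had −0.50 and Vegfa −0.23. By cell, 5.57% of members were in the top 10% of hypoxia expression, against 11.5% in the middle 80% of the score and 17.1% of the cells with none of the 12 transcripts. The share was lowest in the bottom 10% of the score, at 2.41%, and Car9, Ndrg1, Vegfa and Ero1l were higher in members than there in 8 of 8 tumours. Members had a smaller share than the middle in 8 of 8 tumours, between 2.02% and 10.0%. Integrated stress response genes differed less, with a median of −0.07 and 0 of 12 past the threshold, and Atf4 itself had −0.09. Of the 12, 4 were below 0 in 8 of 8 tumours. By cell, 7.42% of members were in the top 10% of this list, against 10.6% in the middle and 7.72% in the bottom 10% of the score. Of the other histone genes, H2afx (−0.67) and Hist1h1c (−0.55) were lower, and H2afz and Hist1h2bc did not pass. No gene passed in the nucleotide synthesis list (13 at level, median 0.07) or the interferon list (7 at level, median −0.03). In the repair lists, Msh6 was higher among 8 genes of base excision and mismatch repair (median 0.09). Of 4 homologous recombination genes, 1 was lower (median −0.18). Over all genes, 0.138% were higher and 1.41% lower.

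The rule required pigment transcripts of every melanoma cell, so the pigment genes it used are no check of identity. Pigment genes outside the rule were alike in members and in the other melanoma cells, which had passed the same filter. Mitf, the master regulator of the pigment lineage, had 337 CPM in members and 336 in the others, and Sox10 122 and 122 CPM. Of 13 pigment cell genes outside the rule, 0 passed the threshold in either direction. Transcripts of most other cell types were scarce. Over all 8 tumours the T and NK cell markers summed to at most 0.727 CPM in members of any tumour, with Cd3e, Gzmb, Cd8a and Trac at 0, and the endothelial markers to at most 4.55 CPM, with Cdh5, Flt1 and Kdr at 0. Erythroid markers reached at most 1.21 CPM. Macrophage markers ran from 4.85 to 46.5 CPM, with Cd68 the most abundant. All 8 fibroblast markers were detected, led by Col3a1, and their sum in members was 20.3, 5.25, 11.9 and 135 CPM in Atf4wt/wt replicates 1 to 4 and 224, 20.1, 3.54 and 256 CPM in Atf4D/D replicates 1 to 4. Fibroblast transcripts in members were thus high in 3 tumours. There the other melanoma cells had less, with 52.8 CPM in Atf4wt/wt replicate 4 and 127 and 151 CPM in Atf4D/D replicates 1 and 4. In every other tumour the other melanoma cells had more than members. Whether these transcripts came from free RNA or mixed barcodes was not tested.

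The first question on host genotype was whether members were more or less frequent in Atf4D/D hosts. Members made up 12.0%, 8.39%, 7.27% and 10.1% of melanoma cells in Atf4wt/wt replicates 1 to 4 and 9.27%, 8.90%, 10.2% and 11.7% in Atf4D/D replicates 1 to 4. The groups overlapped. The group means, with the SD of 4 tumours, were 9.44% ± 2.06 in Atf4wt/wt and 10.0% ± 1.24 in Atf4D/D hosts, 0.566 points apart. An exact two-sided permutation test gave p = 0.629, where 0.0286 is the smallest p that 4 against 4 allows. With 1 tumour left out the difference ran from −0.16 to 1.41 points, and it was negative without Atf4wt/wt replicate 3. Single shares had 95% Wilson intervals such as 11.1% to 12.9% for Atf4wt/wt replicate 1 and 6.22% to 8.48% for Atf4wt/wt replicate 3, which cover counting error only. Tumours within the Atf4wt/wt group thus differed beyond counting error. The bottom 10% of the score made up 10.8% ± 1.75 and 9.35% ± 1.05. The difference was −1.50 points (exact permutation p = 0.171), and −2.02 to −0.78 with 1 tumour left out. With each cell thinned to 4000 UMIs, that share was 10.1%, 12.8%, 10.5% and 10.2% in Atf4wt/wt and 9.74%, 9.15%, 9.47% and 9.93% in Atf4D/D replicates 1 to 4. The groups then did not overlap, with a difference of −1.32 points (exact permutation p = 0.0286). This rested on a single random draw and on a gap within counting error. The Wilson intervals were 9.27% to 11.0% for Atf4wt/wt replicate 1 and 8.85% to 11.1% for Atf4D/D replicate 4.

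**Figure D4:**
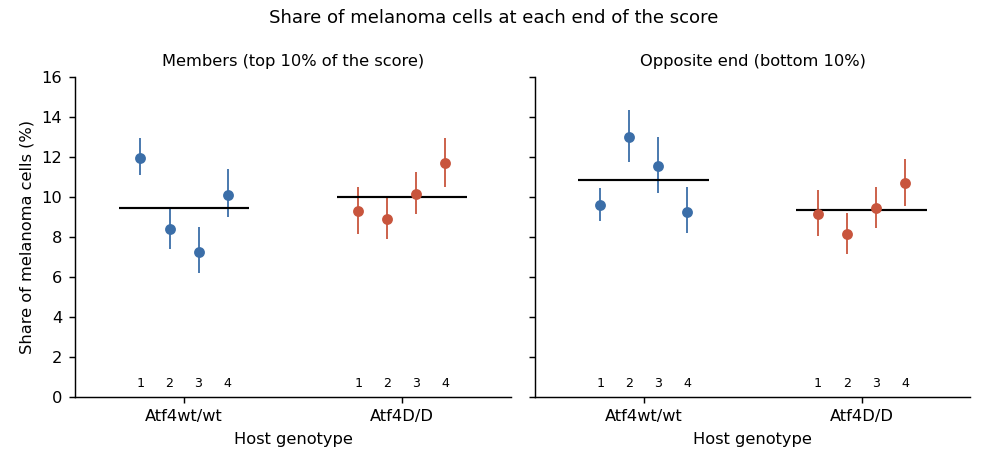
Share of melanoma cells (%) that were members (left) or at the opposite end of the score (right), by host genotype, with 1 point per tumour, replicate numbers along the base, 95% Wilson intervals as bars and group means as black lines. The 4 tumours of each genotype overlap on both sides at full depth, with members between 7.27% and 12.0%.

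Atf4 was read next, in every tumour. In members its level, normalised by the trimmed mean of M-values (TMM), was 259, 359, 314 and 416 CPM in Atf4wt/wt replicates 1 to 4 and 301, 364, 421 and 303 CPM in Atf4D/D replicates 1 to 4. The groups overlapped, with a log2 difference of 0.05 ± 0.13 (SE; edgeR quasi-likelihood test, adjusted p = 0.947). Because the tumour cells kept Atf4, this level does not check the host genotype. In the few barcodes with under 0.1% pigment UMIs, which hold host cells and free RNA, Atf4 had 228, 332, 274 and 287 CPM in Atf4wt/wt and 116, 109, 263 and 59.3 CPM in Atf4D/D replicates 1 to 4. The library labelled Atf4D/D replicate 3 lay inside the Atf4wt/wt range; it had 48 such barcodes and 47 Atf4 UMIs, with an exact Poisson interval of 193 to 349 CPM for counting error only. This reading of pigment-poor barcodes was added after the data were seen. Counts of genes without that library are given below.

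Within members, 4 of 9671 genes (0.0414%) differed between host genotypes at an adjusted p under 0.05 in edgeR's quasi-likelihood test, all higher in Atf4D/D hosts. Other settings split the calls differently: 10 higher and 10 lower by DESeq2, 91 and 71 with every gene of at least 1 count, 5 and 2 with a replicate block, and 2 and 2 in members chosen after thinning. Enpp2 (chr15:54838901-54952892 on GRCm38), which encodes the lysophosphatidic acid producing enzyme autotaxin, had 45.3, 42.6, 55.1 and 49.7 CPM in Atf4wt/wt and 73.8, 76.1, 69.6 and 79.9 CPM in Atf4D/D replicates 1 to 4. The groups did not overlap, with a log2 difference of 0.65 ± 0.10 (SE; edgeR adjusted p = 0.0290). Eno1 (chr4:150236721-150248879), the glycolytic enolase, rose from 538 ± 67.9 to 800 ± 84.1 CPM (SD, n = 4), a log2 difference of 0.57 ± 0.10 (edgeR adjusted p = 0.0381). Tmod1 (chr4:46038935-46116032), an actin capping protein, had 12.5, 18.4, 18.4 and 16.7 CPM against 24.0, 33.7, 40.3 and 31.0 CPM, a log2 difference of 1.05 ± 0.17 (edgeR adjusted p = 0.0362). Ftl1-ps1 (chr13:74399694-74407346), a copy of the ferritin light chain gene, had 0.62 ± 0.10 (edgeR adjusted p = 0.0290). Ftl1-ps1 and Eno1 have close copies, Ftl1 and Eno1b, between which reads could be split, so their values are uncertain. The levels of Ftl1 itself overlapped between genotypes, at 6754 ± 290 and 6405 ± 695 CPM.

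The differences kept their size when 1 tumour was left out, at 0.60 to 0.71 for Enpp2, 0.50 to 0.64 for Eno1, 0.88 to 1.15 for Tmod1 and 0.57 to 0.68 for Ftl1-ps1, but the calls were not stable. With host sex as a covariate, 0 genes passed (847 at an unadjusted p under 0.05), and 0 passed without Atf4wt/wt replicate 1, without Atf4D/D replicate 2 or without Atf4D/D replicate 4. Without Atf4D/D replicate 3, 13 genes passed, including 3 of the 4. DESeq2 called 20 genes, of which 1 was among the 4, but gave an adjusted p to 1148 genes only. The summed fibroblast markers given above overlapped between genotypes, with the lowest value in Atf4D/D replicate 3 and the highest values in Atf4D/D replicates 1 and 4. None of these markers was called (0 of 2 tested), and their part in the calls was not tested.

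**Figure D5:**
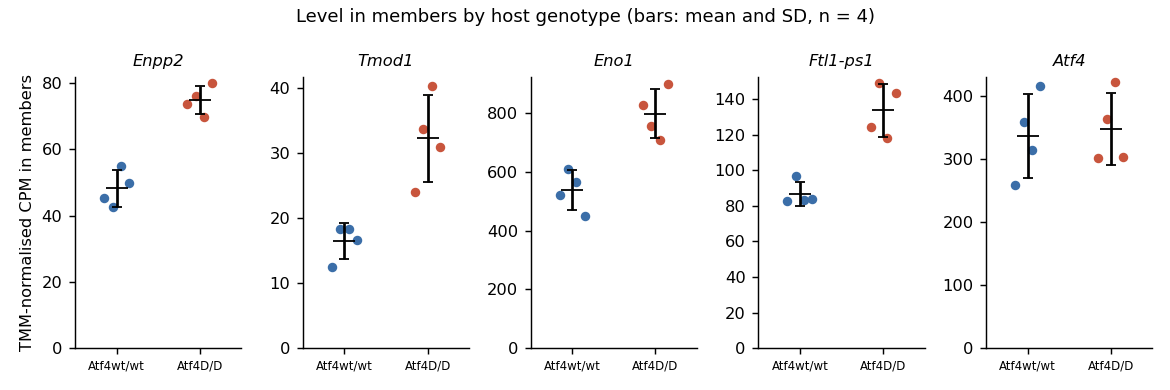
TMM-normalised CPM in members for the 4 genes called between host genotypes and for Atf4, with 1 point per tumour and black bars for the mean and SD (n = 4). The groups separate for Enpp2, Tmod1, Eno1 and Ftl1-ps1 and overlap for Atf4.

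No listed cell cycle gene was called between genotypes within members, which had themselves been selected on cell cycle genes. Of the 23 licensing genes tested, 0 passed in either direction and the median log2 difference was −0.01, and of 23 G1/S genes 0 passed with a median of 0.03. The replication fork (36 tested, median 0.03) and G2/M (32 tested, median 0.07) lists also had 0 genes called. Of all genes tested, 4863 of 9671 had a positive difference, and 868 had an unadjusted p under 0.05. In the interferon response list, 0 of 11 genes passed, but all 11 had a negative log2 difference, with a median of −0.55 and 6 at an unadjusted p under 0.05. Its most abundant gene, B2m, had 243 ± 44.4 and 227 ± 84.2 CPM, which overlapped, and its difference turned positive without Atf4D/D replicate 3 or 4. In the hypoxia list, 0 of 14 passed, 14 had a positive difference and the median was 0.29. That median was 0.15 without Atf4wt/wt replicate 4, 0.19 without Atf4D/D replicate 4, 0.45 without Atf4D/D replicate 2 and 0.46 without Atf4wt/wt replicate 2. Pgk1, the most abundant gene of the list, had 1955 ± 480 and 2304 ± 403 CPM and overlapped. In the MYC and growth list 2 of 13 had a positive difference, the median was −0.10 and 0 passed.

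The same contrast in the other melanoma cells gave 0 of 12522 genes (0%) at an adjusted p under 0.05 in edgeR, with 1359 at an unadjusted p under 0.05, and 99 genes by DESeq2. Without Atf4D/D replicate 3, 6 genes passed. The 3 genes with the smallest p were Pde10a, a cyclic nucleotide phosphodiesterase, Gm29084 and Plat, the tissue plasminogen activator, each with an edgeR adjusted p of 0.0686. Pde10a had 123 ± 20.7 CPM in Atf4wt/wt and 69.3 ± 6.10 CPM in Atf4D/D hosts, and its groups did not overlap. Enpp2 had 45.3 ± 5.71 and 63.9 ± 3.64 CPM there, a log2 difference of 0.50. The medians of the interferon (−0.70) and hypoxia (0.27) lists had the same sign as in members. The interferon median was −0.36 without Atf4wt/wt replicate 4 and −1.15 without Atf4D/D replicate 2. The hypoxia median was 0.12 without Atf4wt/wt replicate 4, 0.17 without Atf4D/D replicate 4, 0.42 without Atf4D/D replicate 2 and 0.44 without Atf4wt/wt replicate 2.

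Whether the genotype difference itself was unlike in members was tested as an interaction with tumour as a block. Of 12107 genes, 2 (0.0165%) passed in edgeR, and neither Enpp2, Tmod1, Eno1 nor Ftl1-ps1 was among them. In the replication fork list 0 of 36 passed, 29 had a positive interaction difference, 6 of these at an unadjusted p under 0.05, and the median was 0.09. Over all genes 6337 of 12107 were positive, 321 of them at an unadjusted p under 0.05, and the median was 0.01. Klf4, a zinc finger transcription factor, had a difference of 0.44 ± 0.08 (SE; edgeR adjusted p = 0.0304). Its log2 ratio of members to others was −0.38, −0.26, −0.35 and −0.32 in Atf4wt/wt replicates 1 to 4 and 0.15, −0.01, −0.03 and 0.38 in Atf4D/D replicates 1 to 4, so the genotypes did not overlap. Klf4 passed again without Atf4D/D replicate 3 (edgeR adjusted p = 0.0193). It did not pass without Atf4wt/wt replicate 1 (edgeR adjusted p = 0.0597), Atf4D/D replicate 1 (0.0616) or Atf4D/D replicate 4 (0.379), nor by DESeq2 (adjusted p = 0.0780). The difference itself was 0.35 to 0.49 whichever tumour was left out. Without Atf4D/D replicate 4, 0 genes passed in edgeR, with 534 at an unadjusted p under 0.05.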

How the data were processed

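Single-cell libraries of 8 B16F10 tumours were made with a 10x 3′ kit (V3 in the labels, V2 in the study's methods). The deposited matrices hold UMI counts per gene and barcode that the authors made with Cell Ranger 3.1.0 on GRCm38, per the submitters' processing notes, which also list Seurat 3.2.1; no normalization had been applied. The members and gene lists were chosen with earlier results of these data known. Doublets were not removed. Counts were summed per tumour and class, so the tumour was the replicate. Each p-value sets a difference against the spread between tumours. For the interaction, that is the spread of the difference between members and others. The genotype contrasts used edgeR 4.0.16 (filterByExpr, TMM, quasi-likelihood F test, Benjamini-Hochberg threshold 0.05) in R 4.3.3, with DESeq2 1.42.0 as an alternative. SE is the size of the log2 difference divided by the square root of F. Shares were compared by an exact permutation test over 70 assignments. Named genes were the score and pigment genes, Atf4, listed genes, the 15 highest and 15 lowest unused genes at 20 CPM with 1 sign in 8 of 8 tumours, and the called genes (with the exception below), or the 3 smallest p where none was called. Klf4's ratios use TMM CPM without an added count. Fits were tested on simulated data, where estimates were unbiased but the interaction called fewer changed genes than the other contrasts; the requirement on the share called was replaced by one on bias and false calls after the interaction had missed it. Members of any pair of replicates differed beyond counting noise (chi-square per gene 2.32 to 5.48). Replicates were separate tumours by their labels. Besides Klf4, the interaction test called a further gene that is not reported here. Alternatives were DESeq2, no filter, thinning, other limits of the score and of quality, host sex, a replicate block and leaving out each tumour.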

Additional observations from a re-analysis of the deposited data

Results flagged for a closer look

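Of 106 groups of 4 tumours checked, 8 had a tumour far from the other 3, where chance gives about 1 in 20. In members, at TMM-normalised levels except for the summed markers, Atf4wt/wt replicate 3 stood high for Ccne1 (63.0 CPM, against a median of 39.5 in the others of its group), and Atf4wt/wt replicate 4 stood high for the summed fibroblast markers (135 CPM, against 11.9). Atf4wt/wt replicate 2 stood low for Uhrf1 (109 CPM, against 124) and Cenpf (31.3 CPM, against 46.9) and high for Ftl1-ps1 (97.0 CPM, against 83.2). Atf4D/D replicate 2 stood low for Mcm4 (85.2 CPM, against 94.5) and high for Hells (119 CPM, against 96.3), and Atf4D/D replicate 3 stood high for Usp37 (35.9 CPM, against 33.3).

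The genotype difference was unlike in members and in the other melanoma cells for Klf4 (0.44 on the log2 scale), by the interaction test with tumour as a block.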

How the results depend on the processing

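Of 129 repeats of the main comparisons under other settings, 94 were counted as unchanged. For shares this meant the same direction and side of the threshold, and for counts a value within 1.5 times. For list medians it meant the same direction and a change smaller than the SD between tumours. The difference in member share ran from −0.16 to 1.41 points when 1 tumour was left out, and turned negative without Atf4wt/wt replicate 3. Thinning to 4000 UMIs brought the bottom 10% to −1.32 points (exact permutation p = 0.0286, the smallest possible). That was a single random draw, and the closest shares of the 2 groups lay within counting error. Leaving out a tumour at full depth gave −2.02 to −0.78. The profile of members depended most on the score. With the 7 licensing genes alone, which kept 27.4% of members, 305 genes were higher and 155 lower, and the medians were 1.33 (licensing), 0.83 (G1/S), −0.37 (G2/M) and 0.12 (other histones, reversed). After thinning, 18 genes were higher and 40 lower, with medians of 0.34 (licensing), −0.63 (G2/M) and −0.21 (other histones). Rrm2 turned to 0.16 when left out of the score.

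Genes called between genotypes in members numbered 20 by DESeq2, 162 with every gene of at least 1 count, 7 with the replicate block (2 of them among the 4), 0 with host sex, 1 with the top 10% of each tumour, and 0 to 13 with a tumour left out. In the other cells they numbered 99, 34 and 0 to 6 (DESeq2, every gene, a tumour left out), and for the interaction 1, 8 and 0 to 4. The causes were not tested. With a tumour left out, Atf4 ran from −0.064 to 0.17 in members and −0.10 to 0.10 in the others, and B2m from −0.38 to 0.024 and −0.34 to 0.029. Same-numbered tumours did not deviate together (r = 0.11, −0.42, −0.30 and −0.36 over 2000 genes), so the numbers do not pair the samples. The replicate block gave p = 0.625 for the member share by exact sign flips. Few UMIs per cell limit the choice of members, and 4 tumours a group limit the contrasts.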
